A study of Mus musculus with 6 samples.

Results

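The SLC25 family are the mitochondrial carriers, and their transcripts were compared between collecting duct cells of newborn mice that had or lacked Bdkrb2, the gene of the bradykinin B2 receptor. Members were all genes whose symbol is Slc25a followed by a number, named by matching each probe's accession to RefSeq. The array named 47 of them, and 42 were tested, out of 14755 genes tested in all. Testing required a probe whose sample signal was well above background on 3 or more of the 6 arrays. Slc25a2, Slc25a18, Slc25a31 and Slc25a54 were above background on 0 of 6 arrays and Slc25a41 on 1, a KO array. These 5 genes have no level here. Just inside the limit, Slc25a43 was above background on 2 WT arrays and 1 KO array.

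The knockout (KO) group was Hoxb7cre+; Bdkrb2 f/f; R26RtdTomato, and the wild-type (WT) group was Hoxb7cre+; R26RtdTomato; Bdkrb2+/+. Both groups therefore carried the Cre driver and the tdTomato reporter, and both were of the C57BL/6 strain. Food with 5% sodium is given for every sample, so genotypes were compared under salt alone. Hoxb7-driven Cre acts in the ureteric bud and its descendants, which include the collecting duct. Kidneys were taken at postnatal day 1 and sorted for GFP and dsRED positive cells. Each group had 3 samples on an Agilent array with 2 channels. Cy5 held the sample RNA, and Cy3 held RNA from WT replicate 1 on every array, its own included. The labels give neither litters nor the number of animals behind a sample, so the p-values measure the spread between these samples. Values below are log2 ratios of Cy5 over Cy3 after loess normalisation within each array. A difference is the KO mean minus the WT mean, given with limma's moderated standard error (SE, n = 3 and 3), and was called where the Benjamini-Hochberg adjusted p over all genes tested was below 0.05.

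Most carriers of this family sit in the inner mitochondrial membrane and exchange metabolites between the matrix and the cytosol. The adenine nucleotide and phosphate carriers bring ADP and phosphate to ATP synthase and send ATP out, others move citric acid cycle intermediates, amino acids, acylcarnitines, cofactors, iron or glutathione, and several have no settled substrate. Cells of the tubule and collecting duct spend much ATP on ion transport, which their mitochondria supply.

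Several facts of the arrays bear on every value. The single Bdkrb2 probe stood well above background on 0 of 6 arrays, so the targeted gene could not be checked. The Cy5 signal was well above background at 49.8% to 52.7% of spots on WT arrays and 56.6% to 57.5% on KO arrays. The 75th percentile of the processed Cy5 signal was 282.4 to 309.1 on WT arrays and 547.6 to 625.4 on KO arrays. That of the reference channel moved alike, but processed signals are dye-normalised, which matches the 2 channels of an array. Ratios were normalised within each array, so lower in KO means lower relative to the other genes of the same array. All 6 arrays were on 1 slide; the KO arrays and WT replicate 1 were in row 1 and the other 2 WT arrays in row 2.

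Markers of cell types differed widely between the groups. All 11 tested principal cell markers were lower in KO, with a median difference of -1.90, and 1 further marker on the list, Scnn1g, was above background on no array. The summed signal of the 12 principal cell markers, scaled to each array's 75th percentile, was 63400 to 73400 on WT arrays and 12500 to 17800 on KO arrays. All 10 intercalated cell markers (summed signal 27200 to 42700 in WT and 6000 to 7250 in KO) and all 8 loop of Henle and distal tubule markers (67800 to 117000 and 16100 to 20100) were lower too. Stroma markers were higher for 8 of 9 (6020 to 20100 in WT and 48500 to 51100 in KO), and nephron progenitor markers for 7 of 8 (12600 to 15300 and 28600 to 55200). Proximal tubule markers were lower for 4 of 9, with overlapping summed signals (25600 to 42300 in WT and 19400 to 26400 in KO). Endothelium markers were lower for 7 of 8 and all 4 tested erythroid markers were lower, while 5 of 6 immune cell markers were higher and 1 lower. Of all genes tested, 20.0% were called lower and 15.4% higher. Genes of cells other than the labelled collecting duct were present in both groups, since all 8 loop of Henle and distal tubule, 9 proximal tubule and 9 stroma markers were above background on every array. The part of these differences in the carrier results was not tested. In such bulk samples, fewer cells of a type and less RNA per cell cannot be told apart.

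Of the 42 carriers tested, 18 (42.9%) were lower in KO cells, 1 was higher and 23 did not pass the threshold. Among all genes tested, 35.3% were called, 20.0% as lower in KO and 15.4% as higher. The counts lower in each role and list below are to be read beside that 20.0%. The median difference of the members was -0.30 and that of all genes tested was -0.02. Differences were below 0 for 34 of the 42 members, including 16 of the 23 that were not called, and for 7639 of all 14755 genes tested. Under centring of each array on its median, 25 of the 42 were below 0, where the median difference of all genes tested was 0.24. For 28 members the KO and WT arrays did not overlap, 25 of them lower in KO, against 52.1% and 28.2% of all genes tested. The 5 members that were lower by at least 1 on the log2 scale were Slc25a5, Slc25a30, Slc25a3, Slc25a12 and Slc25a35, where 5.16% of all genes tested were called and lower by that much.

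**Figure D1:**
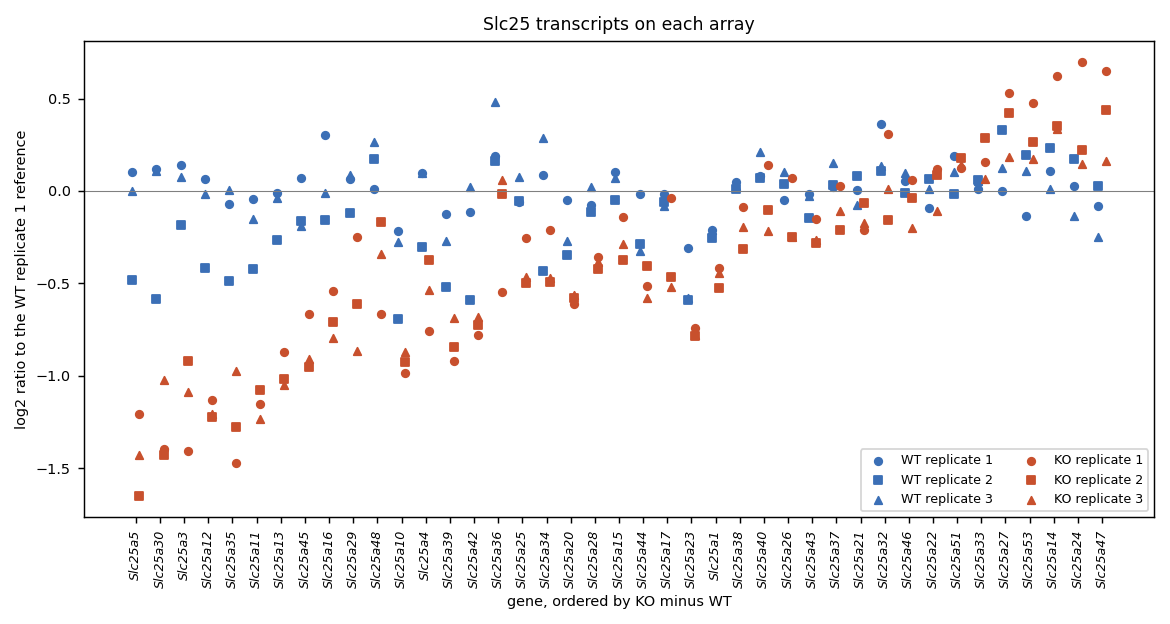
Log2 ratio of Cy5 (sample) over Cy3 (the RNA of WT replicate 1) for 41 of the 42 tested Slc25 genes on each of the 6 arrays, ordered by the KO minus WT difference, with WT arrays in blue and KO arrays in red and 1 marker shape per replicate. The KO points at the left lie below all WT points, at -0.92 or less for the 5 genes that were lower by at least 1, and WT replicate 2 is the lowest WT point for most of them.

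WT replicate 2 lay between the other WT arrays and the KO arrays for many carriers. It was the lowest of the 3 WT arrays for 15 of the 18 members called lower, and for 79 of 80 subunits of the respiratory chain and ATP synthase. The median ratio of the members was 0.01, -0.12 and 0.02 on WT arrays 1, 2 and 3. On the KO arrays it was -0.25, -0.39 and -0.41. WT replicate 1 was measured against its own RNA, so its ratios lie near 0 by design. Without WT replicate 2, 17 members were called lower, 16 of them among the 18.

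The promoters of 6 carriers are shown because they belong to the members the results turn on: Slc25a3, Slc25a5, Slc25a12 and Slc25a30 were lower by at least 1, and Slc25a4 and Slc25a13 are the closest relatives of Slc25a5 and Slc25a12. Each runs 5′ to 3′ from 250 bases before to 50 bases after the gene's start, from RefSeq on GRCm38.p6. Capitals mark matches, on either strand, to 3 motifs named for factors that act on nuclear genes for mitochondrial proteins: GCGC, any 2 bases and GCGC again for NRF1, AAGGTCA for the estrogen-related receptors and CCGGAAG for the ETS family, to which GABPA belongs.
Slc25a3 (chr10:91123918-91124217, minus strand): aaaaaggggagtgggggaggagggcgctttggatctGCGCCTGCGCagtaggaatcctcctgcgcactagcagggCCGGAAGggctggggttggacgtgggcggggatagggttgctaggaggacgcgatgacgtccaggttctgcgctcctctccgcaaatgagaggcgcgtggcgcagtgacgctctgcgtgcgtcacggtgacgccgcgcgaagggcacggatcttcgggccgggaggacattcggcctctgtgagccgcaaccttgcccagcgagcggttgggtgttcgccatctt
Slc25a5 (chrX:36795347-36795646, plus strand): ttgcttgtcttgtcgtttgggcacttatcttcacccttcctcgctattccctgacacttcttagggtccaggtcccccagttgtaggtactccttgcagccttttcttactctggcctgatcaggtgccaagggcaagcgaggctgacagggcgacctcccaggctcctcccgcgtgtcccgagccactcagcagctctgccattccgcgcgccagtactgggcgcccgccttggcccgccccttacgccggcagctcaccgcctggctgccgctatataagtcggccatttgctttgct
Slc25a4 (chr8:46211013-46211312, minus strand): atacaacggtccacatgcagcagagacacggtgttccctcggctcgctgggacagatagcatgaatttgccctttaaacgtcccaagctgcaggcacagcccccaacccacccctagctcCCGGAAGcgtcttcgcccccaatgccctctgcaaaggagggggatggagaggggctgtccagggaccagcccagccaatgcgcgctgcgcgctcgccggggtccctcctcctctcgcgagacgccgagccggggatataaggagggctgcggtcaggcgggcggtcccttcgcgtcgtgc
Slc25a12 (chr2:71367706-71368005, minus strand): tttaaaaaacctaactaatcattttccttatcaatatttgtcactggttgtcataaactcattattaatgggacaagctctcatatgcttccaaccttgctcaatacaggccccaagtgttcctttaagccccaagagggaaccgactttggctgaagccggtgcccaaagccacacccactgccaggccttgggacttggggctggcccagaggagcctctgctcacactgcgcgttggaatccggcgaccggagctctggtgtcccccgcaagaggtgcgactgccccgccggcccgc
Slc25a13 (chr6:6217124-6217423, minus strand): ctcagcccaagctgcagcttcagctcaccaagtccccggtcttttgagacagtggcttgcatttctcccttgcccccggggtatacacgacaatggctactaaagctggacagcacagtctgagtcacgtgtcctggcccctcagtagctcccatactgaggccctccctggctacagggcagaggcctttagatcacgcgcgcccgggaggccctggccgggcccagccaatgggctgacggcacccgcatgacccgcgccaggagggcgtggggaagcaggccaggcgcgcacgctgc
Slc25a30 (chr14:75786988-75787287, minus strand): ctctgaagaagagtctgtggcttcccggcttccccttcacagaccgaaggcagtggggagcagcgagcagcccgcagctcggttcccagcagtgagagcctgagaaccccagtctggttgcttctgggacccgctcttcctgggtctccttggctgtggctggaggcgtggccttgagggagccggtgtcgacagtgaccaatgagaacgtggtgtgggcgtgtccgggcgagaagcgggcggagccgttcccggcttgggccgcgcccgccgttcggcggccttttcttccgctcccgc

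Only Slc25a3 and Slc25a4 of these 6 windows held a match: the Slc25a3 window had 1 NRF1 and 1 ETS match, and that of Slc25a4 had 1 ETS match. RefSeq promoters were found for 36 Slc25 genes, 33 of them tested. Among the 17 called lower with a promoter, 2 had an NRF1 match, 4 an ETS match and 0 an estrogen-related receptor match. Of the other 16 tested members, 0, 2 and 1 had these matches. The shares of the 17 lower members were 11.8% for NRF1 and 23.5% for ETS, beside 13.4% and 17.6% of the 11692 tested genes with a promoter, of which 4.11% held the receptor motif. Of all promoter windows of this length, tested or not, 6.23% held the NRF1 motif, 8.86% the ETS motif and 4.72% the receptor motif. A match is a stretch of letters and was not tested as a site.

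The adenine nucleotide and phosphate carriers had 4 of 6 tested members lower and, by limma's adjusted p or at an unadjusted p under 0.05, 0 higher, with a median difference of -0.45. Slc25a5 exchanges ADP for ATP across the inner membrane in most tissues. Its ratio was 0.10, -0.48 and -0.00 on the WT arrays and -1.20, -1.65 and -1.43 on the KO arrays. Every KO array was thus below the lowest WT array, which was replicate 2. The difference was -1.30 ± 0.18 (SE), or 2.46-fold lower, with a limma adjusted p of 0.00124. As signal scaled to each array's 75th percentile, Slc25a5 stood at 16910, 12340 and 18620 in WT and at 8109, 5963 and 5713 in KO. In unscaled processed signal the groups overlapped, from 9077.71 to 12512.1 in WT and from 7442.38 to 11625.1 in KO.

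Slc25a3, which carries the phosphate used by ATP synthase, had ratios of 0.14, -0.19 and 0.08 in WT and of -1.41, -0.92 and -1.09 in KO. The groups did not overlap, and KO replicate 1 was lowest. It was lower by 2.21-fold, a difference of -1.15 ± 0.15 (SE; limma adjusted p = 0.00104), and a second Slc25a3 probe gave -0.95. Slc25a4, the ADP/ATP carrier best known from heart and muscle, was at 0.10, -0.30 and 0.10 in WT and at -0.76, -0.37 and -0.53 in KO. Its highest KO array lay just below WT replicate 2, and the difference of -0.52 ± 0.15 (SE) had a limma adjusted p of 0.0300. That call was lost when any of WT replicates 1 and 3 and KO replicates 1 and 3 was left out, with adjusted p of up to 0.117.

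The calcium-regulated ATP-Mg/phosphate carriers Slc25a23, Slc25a24 and Slc25a25 belong to the same role but did not move as one. Slc25a25 was at -0.06, -0.06 and 0.08 in WT and at -0.25, -0.50 and -0.46 in KO, lower by 0.39 (difference -0.39 ± 0.11 SE, limma adjusted p = 0.0249). Its call was lost without any 1 of 5 arrays, all but KO replicate 1. Slc25a23 was at -0.31, -0.59 and -0.58 in WT and at -0.74, -0.78 and -0.78 in KO and did not pass the test (difference -0.28 ± 0.11 SE, limma adjusted p = 0.0876). With Agilent's ratio (-0.50) and with Cy5 alone scaled at the 75th percentile (-0.54), Slc25a23 was called lower. Slc25a24 had the opposite sign, at 0.03, 0.17 and -0.14 in WT and 0.70, 0.22 and 0.14 in KO. The groups of Slc25a24 overlapped, and its difference of 0.33 ± 0.16 (SE) did not pass the test either (limma adjusted p = 0.152).

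**Figure D2:**
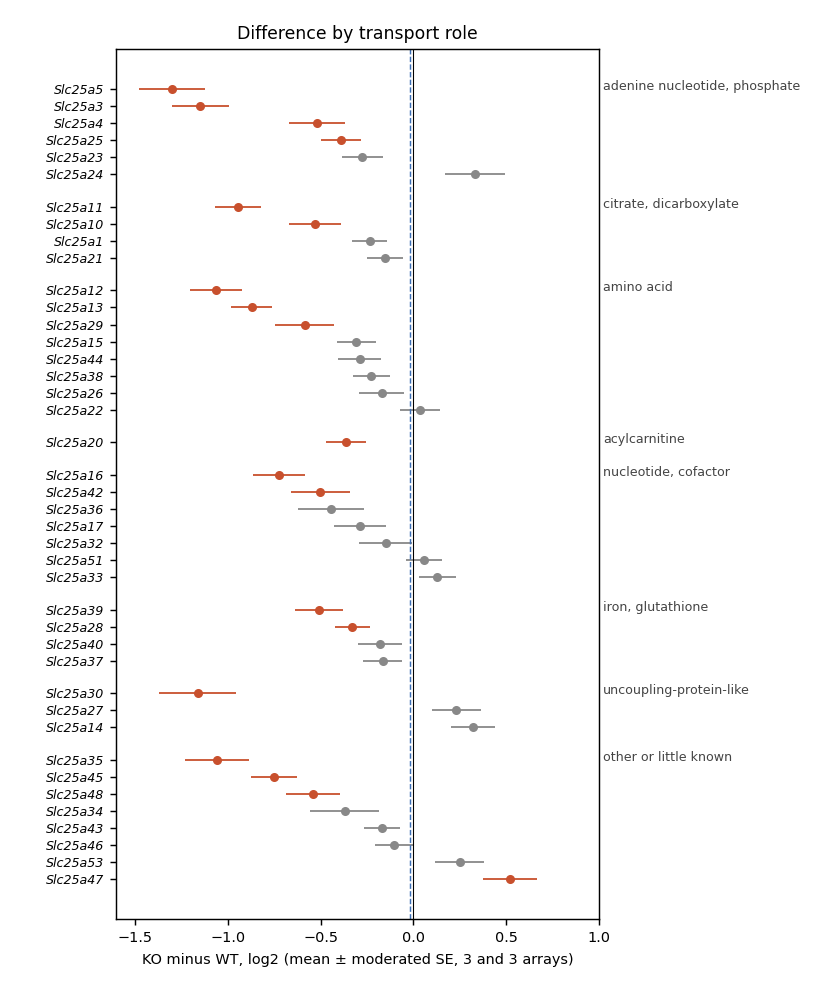
Difference between KO and WT (mean of 3 KO minus mean of 3 WT log2 ratios, bars ± limma's moderated SE) for 41 of the 42 tested Slc25 genes, grouped by what they transport. Red marks the 19 genes past the adjusted threshold and grey the other 22; the dashed line is the median of all genes tested, -0.02. Each group but the uncoupling-protein-like carriers has its median below 0.

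Of the carriers of citric acid cycle intermediates, Slc25a11 and Slc25a10 were lower and Slc25a1 and Slc25a21 were not called. Slc25a11, the oxoglutarate-malate carrier of the malate-aspartate shuttle, was at -0.04, -0.42 and -0.15 in WT and at -1.15, -1.08 and -1.23 in KO. All 3 KO values lay well apart from WT, with a difference of -0.95 ± 0.12 (SE; limma adjusted p = 0.000973). Slc25a10, the dicarboxylate carrier, was at -0.21, -0.69 and -0.28 in WT and -0.98, -0.92 and -0.87 in KO (difference -0.53 ± 0.14 SE, limma adjusted p = 0.0204). The citrate carrier Slc25a1 differed by -0.24 and the oxoadipate carrier Slc25a21 by -0.15.

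Both aspartate-glutamate carriers, the other transport step of the malate-aspartate shuttle, were lower. Slc25a12 was at 0.06, -0.42 and -0.02 in WT and at -1.13, -1.22 and -1.21 in KO. The KO arrays lay close together (SD 0.05, n = 3) and far below WT replicate 2, with a difference of -1.06 ± 0.14 (SE), 2.09-fold lower (limma adjusted p = 0.000979). Slc25a13 was at -0.01, -0.26 and -0.04 in WT and at -0.87, -1.02 and -1.05 in KO (difference -0.87 ± 0.11 SE, limma adjusted p = 0.000903). Among the other amino acid carriers, Slc25a29, a carrier of basic amino acids, was lower by 0.59 (difference -0.59 ± 0.16 SE, limma adjusted p = 0.0238), and its KO values spread from -0.86 to -0.25. Not called were the ornithine carrier Slc25a15 (-0.31), Slc25a44 (-0.29, branched-chain amino acids), Slc25a38 (-0.23, glycine for haem synthesis), Slc25a26 (-0.17, S-adenosylmethionine) and the glutamate carrier Slc25a22 (0.04). Slc25a15 was called lower with Agilent's ratio (-0.67) and with Cy5 alone scaled at the 75th percentile (-0.72). In all, 3 of 8 tested members of this role (37.5%) were lower, beside 20.0% of all genes tested. The median difference was -0.30.

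The carnitine-acylcarnitine carrier Slc25a20, which brings fatty acids in for oxidation, was at -0.05, -0.34 and -0.27 in WT and -0.61, -0.58 and -0.56 in KO. It was lower by 0.36 (difference -0.36 ± 0.11 SE, limma adjusted p = 0.0337). The call was lost with Cy5 alone scaled at the 75th percentile and in 4 of the fits that left out 1 array. With each array centred on its median the difference was -0.09, without a call.

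Of the 8 tested carriers of nucleotides and cofactors, 2 (25%) were lower, beside 20.0% of all genes tested. Their median difference was -0.22. Slc25a16 was at 0.30, -0.16 and -0.01 in WT and -0.54, -0.71 and -0.79 in KO (difference -0.73 ± 0.14 SE, limma adjusted p = 0.0055). Slc25a42, a carrier of coenzyme A, was lower by 0.50 (difference -0.50 ± 0.16 SE, limma adjusted p = 0.0410), a call lost without any 1 of 5 arrays, all but WT replicate 2. Slc25a42 stood at -0.11, -0.59 and 0.02 on the WT arrays and at -0.78, -0.73 and -0.68 on the KO arrays. The pyrimidine nucleotide carriers Slc25a36 (-0.44) and Slc25a33 (0.13), the peroxisomal carrier Slc25a17 (-0.29), the folate and FAD carrier Slc25a32 (-0.15) and the NAD carrier Slc25a51 (0.06) were not called. Slc25a51 was the only member whose tested probes differed in sign, its second probe giving -0.29.

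Among the carriers of iron and glutathione, 2 of 4 were lower and all 4 were below 0. The glutathione carrier Slc25a39 was at -0.13, -0.52 and -0.27 in WT and at -0.92, -0.84 and -0.69 in KO (difference -0.51 ± 0.13 SE, limma adjusted p = 0.0176). Its relative Slc25a40 was at 0.08, 0.07 and 0.21 in WT and 0.14, -0.10 and -0.22 in KO, with overlapping groups (difference -0.18, not called). Of the mitoferrins, which bring iron in for haem and iron-sulphur clusters, Slc25a28 was lower, at -0.08, -0.11 and 0.02 in WT and -0.35, -0.42 and -0.39 in KO. That difference of -0.33 ± 0.09 (SE) had a limma adjusted p of 0.0274. The Slc25a28 call was lost with Agilent's ratio and in 4 of the fits that left out 1 array. With each array centred on its median the Slc25a28 difference was -0.04, without a call. The erythroid mitoferrin Slc25a37 was at 0.02, 0.03 and 0.15 in WT and 0.02, -0.21 and -0.11 in KO (difference -0.17, not called), while all 4 tested erythroid markers were lower in KO.

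Of the 3 tested carriers that resemble uncoupling proteins, 1 was lower and the other two had differences above 0. Slc25a30, first described as a kidney mitochondrial carrier, was at 0.12, -0.59 and 0.11 in WT and at -1.40, -1.43 and -1.02 in KO. WT replicate 2 lay well below the other WT arrays, and all KO arrays lay below it. The difference was -1.16 ± 0.21 (SE), 2.24-fold lower (limma adjusted p = 0.00388). Slc25a14, best known from brain, went the other way, from 0.11, 0.23 and 0.01 in WT to 0.62, 0.35 and 0.34 in KO, but did not pass the test (difference 0.32 ± 0.12 SE, limma adjusted p = 0.0701). Slc25a27, another brain carrier, differed by 0.23 and was not called.

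Among members of other or little known role, 3 of 8 tested (37.5%) were lower and 1 (12.5%) was higher. Of all genes tested, 20.0% were lower and 15.4% higher. Slc25a35 was at -0.07, -0.49 and 0.01 in WT and at -1.47, -1.28 and -0.97 in KO. Its groups did not overlap, and it was lower by 2.08-fold (difference -1.06 ± 0.17 SE, limma adjusted p = 0.00264). Slc25a45 was at 0.07, -0.16 and -0.19 in WT and -0.67, -0.95 and -0.91 in KO (difference -0.75 ± 0.12 SE, limma adjusted p = 0.00264). Slc25a48 was lower by 0.54 (difference -0.54 ± 0.15 SE, limma adjusted p = 0.0227), but it was dim and well above background on only 2 of 3 KO arrays. Agilent's own ratio put the Slc25a48 difference at -2.25, without a call. Slc25a34 (-0.37), Slc25a43 (-0.17), the outer membrane protein Slc25a46 (-0.10) and Slc25a53 (0.25) were not called.

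Slc25a47, a carrier known mainly from liver, was the 1 member that was higher in KO. It was at -0.08, 0.03 and -0.25 in WT and at 0.65, 0.44 and 0.16 in KO. KO replicate 3 was close to the highest WT array. The difference was 0.52 ± 0.15 (SE; limma adjusted p = 0.0259). It did not keep its call when slide row was a block, nor without WT replicate 1, WT replicate 3 or KO replicate 2, with adjusted p of up to 0.188.

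Leaving out each array in turn divided the 18 lower members evenly. Slc25a5, Slc25a3, Slc25a12, Slc25a30, Slc25a35, Slc25a11, Slc25a13, Slc25a16 and Slc25a45 stayed past the threshold without any 1 array, and the other 9 lost the call without at least 1. The number of members called lower ranged from 9, without WT replicate 3, to 19, without KO replicate 1. It was 10 without WT replicate 1 and 11 without KO replicate 2. The number of all genes called fell to 3243 without WT replicate 3, from 5213.

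Relatives within the family were set against each other on the same array, which removes any shift that both share. The difference of the log2 ratios of Slc25a5 and Slc25a4 was 0.01, -0.18 and -0.10 on the WT arrays and -0.45, -1.27 and -0.90 on the KO arrays. Every KO array lay below the WT arrays, with KO lower by 0.78 (difference -0.78). Slc25a30 against Slc25a14 gave 0.01, -0.82 and 0.10 in WT and -2.02, -1.78 and -1.36 in KO (difference -1.48). Slc25a25 against Slc25a24 differed by -0.72 between the groups and Slc25a23 against Slc25a24 by -0.61. The pyrimidine nucleotide carriers, Slc25a36 against Slc25a33, differed by -0.57, from 0.18, 0.10 and 0.43 in WT to -0.71, -0.30 and -0.01 in KO. For the aspartate-glutamate carriers, Slc25a12 against Slc25a13, the difference was -0.19, and the groups were barely apart. WT replicate 2 was at -0.1515 and KO replicate 3 at -0.1579. For the mitoferrins, Slc25a28 against Slc25a37, the difference was -0.16. Each of these 7 pairs had an exact 2-sided permutation p of 0.1, the smallest that 3 against 3 arrays can give, or 0.114 when adjusted over the 8 pairs compared. Slc25a39 against Slc25a40 overlapped between the groups (difference -0.33, exact permutation p = 0.3). Among single genes, 52.1% of all tested did not overlap, and the share for other pairs of genes was not computed. How far a probe also binds the transcript of a relative was not tested.

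**Figure D3:**
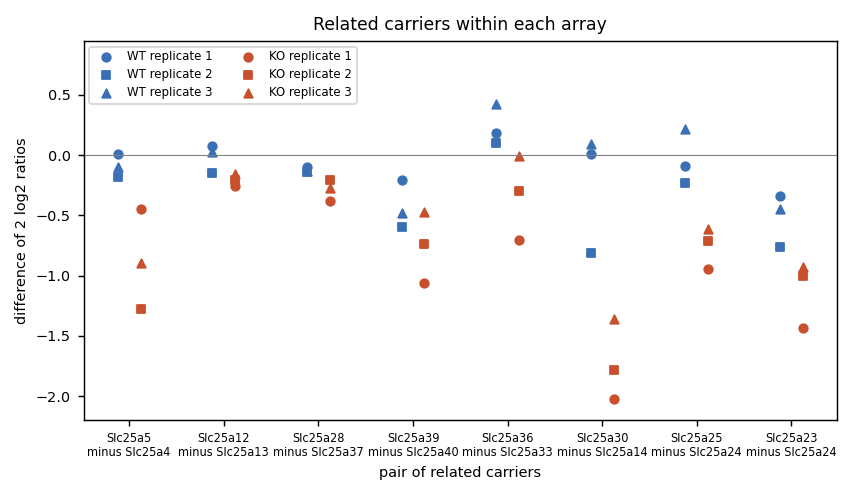
Difference between the log2 ratios of 2 related carriers on the same array, for 8 pairs, with WT arrays in blue and KO arrays in red. KO points lie below WT points in all pairs but Slc25a39 minus Slc25a40, by the most for Slc25a30 minus Slc25a14 (difference between group means -1.48). For Slc25a12 minus Slc25a13 the groups are barely apart (-0.1515 on WT replicate 2 and -0.1579 on KO replicate 3).

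Lists of other mitochondrial genes differed in how many members were lower. Of 80 tested subunits of the respiratory chain and ATP synthase, 75 (93.8%) were lower, with a median difference of -0.85. The 4 with the smallest p were Uqcr11, Ndufb2, Cox7b and Cox7a1 (-1.24, -1.04, -1.33 and -1.47). The 1 subunit called higher, Cox8b, had a signal well above background in KO alone. Mitochondrial ribosomal proteins were lower for 32 of 77 (41.6%), with a median of -0.29 beside -0.30 for the carriers. All other solute carrier genes together had 75 of 248 lower (30.2%) and 25 higher, with a median of -0.24. These are counts beside those of the carriers, and no difference between the lists was tested.

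Carrier relatives without an Slc25 symbol gave 2 lower of 4 tested. They were the outer membrane proteins Mtch1 (-0.68 ± 0.10 SE) and Mtch2 (-0.62 ± 0.10 SE), while the uncoupling proteins Ucp3 (-0.36) and Ucp2 (-0.30) were not called. Of 23 other genes of mitochondrial membrane transport, 14 were lower. The 4 with the smallest p were Mpc2 (-1.25), a subunit of the pyruvate carrier, the outer membrane protein Tspo (-1.44), the inner membrane ion exchanger Letm1 (-1.02) and Sfxn5 (-0.85). Enzymes that use the carriers' substrates were lower for 12 of 23 tested. They included Mdh1 (-1.33) and Got1 (-1.15), the cytosolic enzymes of the malate-aspartate shuttle. Gldc, a subunit of the glycine cleavage system, was the 1 enzyme called higher (1.52).

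The machinery that imports carriers into mitochondria was lower for 3 of 10 genes (30%), beside 20.0% of all genes tested. These 3 were the small chaperones Timm8b (-0.66), Timm13 (-0.49) and Timm9 (-0.47). By limma, 0 of the ribosomal proteins, of the other transport genes and of the import genes were higher, also at an unadjusted p under 0.05. Of 9 regulators of mitochondrial gene expression, 3 (33.3%) were lower. They were the coactivator Ppargc1a (-1.90 ± 0.33 SE) and the estrogen-related receptors Esrrg (-1.38 ± 0.15 SE) and Esrra (-1.19 ± 0.12 SE). Gabpa was higher (0.41 ± 0.13 SE, limma adjusted p = 0.0426), and Nrf1 was not called (0.35).

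**Figure D4:**
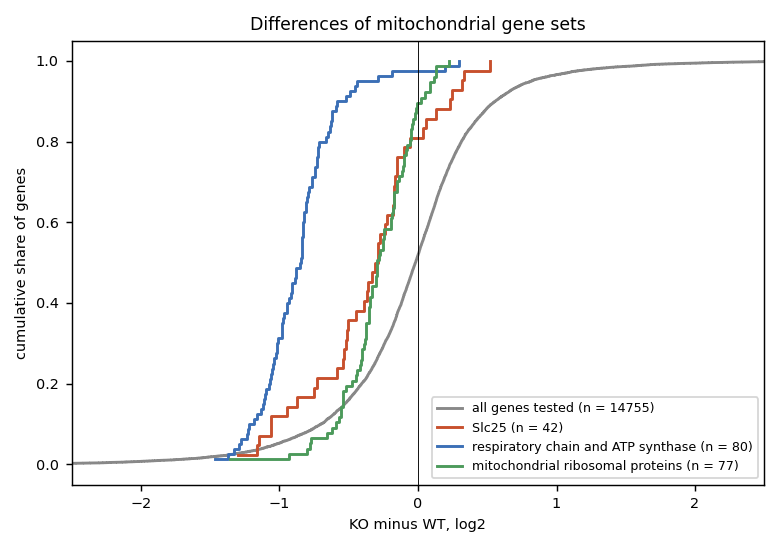
Cumulative share of genes (y axis) at or below each KO minus WT difference (x axis, log2) for all 14755 genes tested, the 42 Slc25 genes, 80 subunits of the respiratory chain and ATP synthase, and 77 mitochondrial ribosomal proteins. The medians are -0.02, -0.30, -0.85 and -0.29.

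The size of the carrier differences depended on how arrays were scaled. With each array centred on its median in place of loess, the median of all genes moved to 0.24 and the split of calls turned from 43.5% to 74.4% higher in KO. The members' median then stood at -0.09, or -0.34 relative to that of all genes, against -0.28 after loess. Only 5 members were still called lower under median centring: Slc25a5, Slc25a3, Slc25a12, Slc25a30 and Slc25a35. These 5 were called lower under all 15 alternatives run, but not every alternative was a separate check. Agilent's ratio and the series matrix hold the same ratios. Slc25a5, Slc25a12, Slc25a30 and Slc25a35 each had 1 tested probe, so the other filters and the mean of probes left their ratios unchanged. With Agilent's ratio 16 members were lower, 14 of them among the 18. Slc25a25, Slc25a28, Slc25a42 and Slc25a48 lost their call there. With Cy5 alone, scaled at the 75th percentile, 16 were lower, 13 of them among the 18. Slc25a20, Slc25a29, Slc25a39, Slc25a42 and Slc25a48 lost theirs there. Slide row as a block, under which WT replicate 1 is the single WT array set against KO, kept 11 of the 18.

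**Figure D5:**
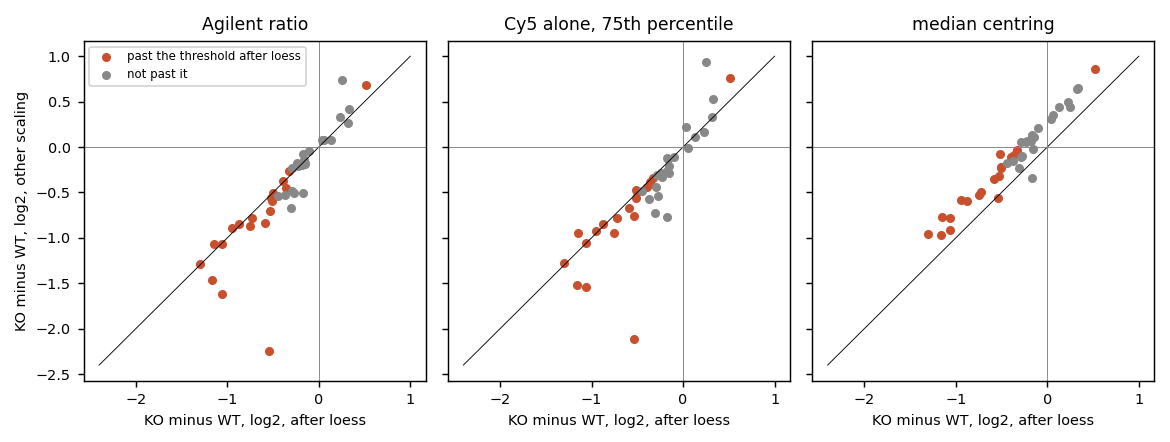
KO minus WT difference (log2) of 41 of the 42 tested Slc25 genes after loess (x axis) against the same difference under 3 other scalings (y axis: Agilent's ratio, Cy5 alone at the 75th percentile, median centring), with the line of equality; red genes were past the threshold after loess. In the first and second panels the points farthest from the line include Slc25a48 (-0.54 after loess, -2.25 and -2.11), Slc25a53 (0.25, 0.74 and 0.94), Slc25a43 (-0.17, -0.51 and -0.77), Slc25a35 (-1.06, -1.62 and -1.54) and Slc25a15 (-0.31, -0.67 and -0.72); under median centring points lie above it, except Slc25a43 and Slc25a48.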

How the data were processed

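RNA of 3 KO and 3 WT samples was measured on 2-colour Agilent arrays. The deposited scanner files give, for each channel, the median intensity of a spot and of its background. Per the file headers they come from Agilent Feature Extraction 10.7.3.1; version 6.1 is named in the submitters' processing notes. The log10 ratios in these files are of background-subtracted, dye-normalised processed signals, per the file headers, and the authors' deposited series matrix holds the same ratios, with a median of 0 in every column and within 0.00499 of the scanner files' values.

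Medians were used because the files used here hold no mean spot signal. They were corrected by normexp with an offset of 50, turned into log2 Cy5/Cy3 ratios and put through loess array by array, giving controls no weight. Spots marked as outliers were left out and spots of a probe averaged. Of 55681 probes, 27509 matched a RefSeq accession. The probe with the highest signal stood for its gene; 8 members had several tested probes. The fit used limma 3.58.1 under R 4.3.3 (4 residual and 3.97 prior degrees of freedom), a procedure that was tested on simulated data first. The number of arrays limits the precision. No dyes were swapped, so a dye bias of a gene cancels in KO minus WT only. Cy3 held the same RNA on all 6 arrays. Once scaled to each array's 75th percentile, the members' Cy3 signal had a standard deviation over arrays of 0.03 to 0.31 on the log2 scale.

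The members and gene lists were chosen with earlier results of these data known. Counts and medians cover every tested Slc25 gene; 1 tested member and some genes of the companion lists are not reported here by name. Values on every array are given for members called, not overlapping and at least 1 apart and for pairs of relatives, with some others added, and up to 4 genes by p from each companion list. Cox8b, Gldc and Nrf1 were named after their values were seen. The alternatives were another scaling, filter, probe rule, block and each array left out.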

Additional observations from a re-analysis of the deposited data

How the results depend on the processing

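The precision is limited by 3 arrays per group and, for Slc25a43, Slc25a48 and Slc25a53, by signals near background. Slc25a15 (processed signal 30.5 to 47.1) and Slc25a21 (35.9 to 73.2) were dim too, though well above background on all 6 arrays. The count of all genes called, 5213, was 2219 with slide row as a block and ranged from 3243 to 5709 when each array was left out in turn. Members called lower, 18, numbered 5 under median centring and 11 with slide row as a block, and 9 to 19 without each array in turn. Members called higher, 1, numbered 2 with Cy5 alone, 3 under median centring and 0 with slide row as a block, and 0 to 1 without each array. The members' median of -0.30 was -0.47 with Agilent's ratio and with the series matrix, -0.44 with Cy5 alone and -0.0923 under median centring. Under median centring the counts lower were 5 of other mitochondrial transport, 4 of the enzymes, 0 of the import machinery, 21 of the respiratory chain, 1 of the ribosomal proteins and 35 of the other solute carriers. With slide row as a block they were 8 of other mitochondrial transport, 1 of the import machinery, 9 of the ribosomal proteins and 42 of the other solute carriers. Without each array in turn they ranged from 9 to 15 for other mitochondrial transport, 1 to 4 for the import machinery and 16 to 35 for the ribosomal proteins. At an unadjusted limma p under 0.05, 0 import genes were lower under median centring and 1 member was higher with slide row as a block. Members not called changed sign under median centring for Slc25a1 (0.0549), Slc25a17 (0.051), Slc25a26 (0.12), Slc25a32 (0.11), Slc25a37 (0.13), Slc25a38 (0.064), Slc25a40 (0.0644) and Slc25a46 (0.21). Slc25a51 changed sign with Cy5 alone (-0.013), the mean of probes (-0.12) and slide row as a block (-0.0383). Without each array in turn, Slc25a22 ranged from -0.0068 to 0.11. Some members not called after loess gained a call: Slc25a15 was lower under 5 alternatives, Slc25a23 under 3 and Slc25a38 under 2. The counts for Slc25a15 and Slc25a23 include both Agilent's ratio and the series matrix, which hold the same ratios. That for Slc25a15 also includes the mean of probes, though this gene had 1 tested probe. Under 1 alternative each, Slc25a17, Slc25a34 and Slc25a36 were called lower and Slc25a14, Slc25a24 and Slc25a53 higher. The cause of these changes was not tested. Same-numbered KO and WT replicates had correlations of their deviations of 0.135, 0.083 and 0.201, each WT array correlating best with its own number, and the labels do not say that the numbers pair samples. With the replicate block, 5131 genes were called in all and 17 members were lower, 16 of them among the 18.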
